A study of Mus musculus with 2 samples.

Results

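The potassium channel genes were taken as all genes of the count tables whose symbol is Kcn, further letters and a number. This gave 92 of 32285 genes in 17 families, with auxiliary subunits and the calcium-binding KChIP proteins included. They were measured by single-nucleus RNA-seq in the mouse cerebellum at postnatal day 1, when granule neuron progenitors (GNPs) divide in the external granule layer and each cell that leaves it becomes a granule neuron (GN). The control library pooled nuclei from 12 cerebella of littermates without Cre, described as Tox3f/f in the genotype label and as Tox3f/f or Tox3f/+ in the library name. The second library, labelled cKO, pooled nuclei from 12 cerebella of Nestin-cre;Tox3f/f mice. Both groups thus carry the floxed allele of Tox3, an HMG-box gene, and Nestin-cre acts in neural progenitors and so in neurons and glia of all kinds.

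With 1 library per genotype there was no test, and animals within a pool could be told apart only by the sex of the nuclei. Levels are UMI counts scaled to a sum of 1000000 (CPM), where a UMI marks 1 captured RNA molecule. Each ratio is CPM in the library labelled cKO over CPM in control, with a 95% interval from the 2 UMI counts in parentheses. These intervals cover counting error only. A gene was counted as higher or lower when it held at least 100 UMIs over both libraries in the nuclei compared and its ratio was at least 1.5 in either direction.

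After filtering, 4667 control nuclei and 6555 nuclei labelled cKO remained, with medians of 3978 and 4025 UMIs, and 9 barcodes occurred in both libraries. Clusters were named again here from marker genes, so class limits may differ from those of the study. The GNP-like class held 525 of the control nuclei (11.2%) and 128 of those labelled cKO (1.95%), and the GN-like class 24.0% and 21.8%. Droplets of low depth, which were left unnamed, were 21.7% and 10.8%. They formed a cluster of 989 control nuclei and 58 labelled cKO, and another of 25 and 647, so each came mostly from 1 library. Tox3 itself stood at 104 and 118 CPM over all nuclei, a ratio of 1.14 (1.08–1.20), and at 247 and 486 CPM in GNP-like nuclei, a ratio of 1.97 (1.68–2.31). Atoh1, a transcription factor of GNPs, had 42 and 3 UMIs over all nuclei, a ratio of 0.0485 (0.00962–0.152). UMIs summed over Tox3 do not show whether floxed sequence is missing, so that library is called by its label throughout.

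Potassium channels let potassium leave or enter the cell and so set the resting potential and end each action potential. Voltage-gated (Kv) channels open on depolarisation, calcium-activated channels open when calcium enters, inward rectifiers (Kir) and tandem-pore K2P channels act near rest, and KChIP and beta proteins tune the pores they bind. Mature granule neurons are known for A-type current through the Kv4 family and for K2P leak current, Purkinje cells for large calcium-activated currents, and Bergmann glia for uptake of potassium through Kir channels.

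All 92 genes had at least 1 UMI, 63 held at least 100 UMIs over all nuclei and 29 held fewer. Together they gave 252735 control UMIs and 351043 labelled cKO, or 1.23% and 1.16% of all UMIs. A small number of genes carried most of this. Kcnd2 (the main Kv4 pore), Kcnip4 (a KChIP that binds Kv4 channels), Kcnb2 (a Kv2 delayed rectifier), Kcnq5 (a Kv7, or M-current, pore) and Kcnh7 (an ERG-type pore) made up 63.5% of the UMIs, and the 10 most abundant genes 80.2%. The Kv4 family held 23.5% of the UMIs, the 4 KChIP genes 21.4%, the Kv7 family 11.8% and the Kv2 family 9.46%.

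Longer genes held more UMIs. Over the 63 genes with at least 100 UMIs, UMIs and gene length were correlated across genes (Spearman's rho = 0.740), and the median length was 56.0 kb in these against 10.7 kb in the 29 others. Per kb of gene, Kcnj13 ranked first with 331 UMIs, and Kcnd2 held 246, Kcnmb1 (a BK channel beta subunit) 130 and Kcnb2 128. Kcnip4, which spans 1135 kb, held 101 UMIs per kb. Kcnj13, a Kir gene of 8.37 kb, lies inside Gigyf2 on the opposite strand, and its level hardly differed between classes, at 47.8 to 74.8 CPM in control. Kcnmb1 lies inside Kcnip1, again on the opposite strand. Whether strand was used in counting is not given in the sources used here, so reads of these 2 pairs may not be fully separated. In all, 33 of the 92 genes overlap another counted gene, 4 of them on the same strand.

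Channel genes differed widely between the 9 named classes, and the class with the highest level was the same in both libraries for 38 of the 50 channel genes with at least 100 UMIs in each library (58.3% of all genes so tested). The GN-like class was highest in both libraries for 11 of the 50 channel genes (22%), against 2.64% of all genes, and the Purkinje cell-like class for 10 (20%), against 4.77%. For no channel gene was the GNP-like class highest in both libraries, against 11.1% of all genes.

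**Figure D1:**
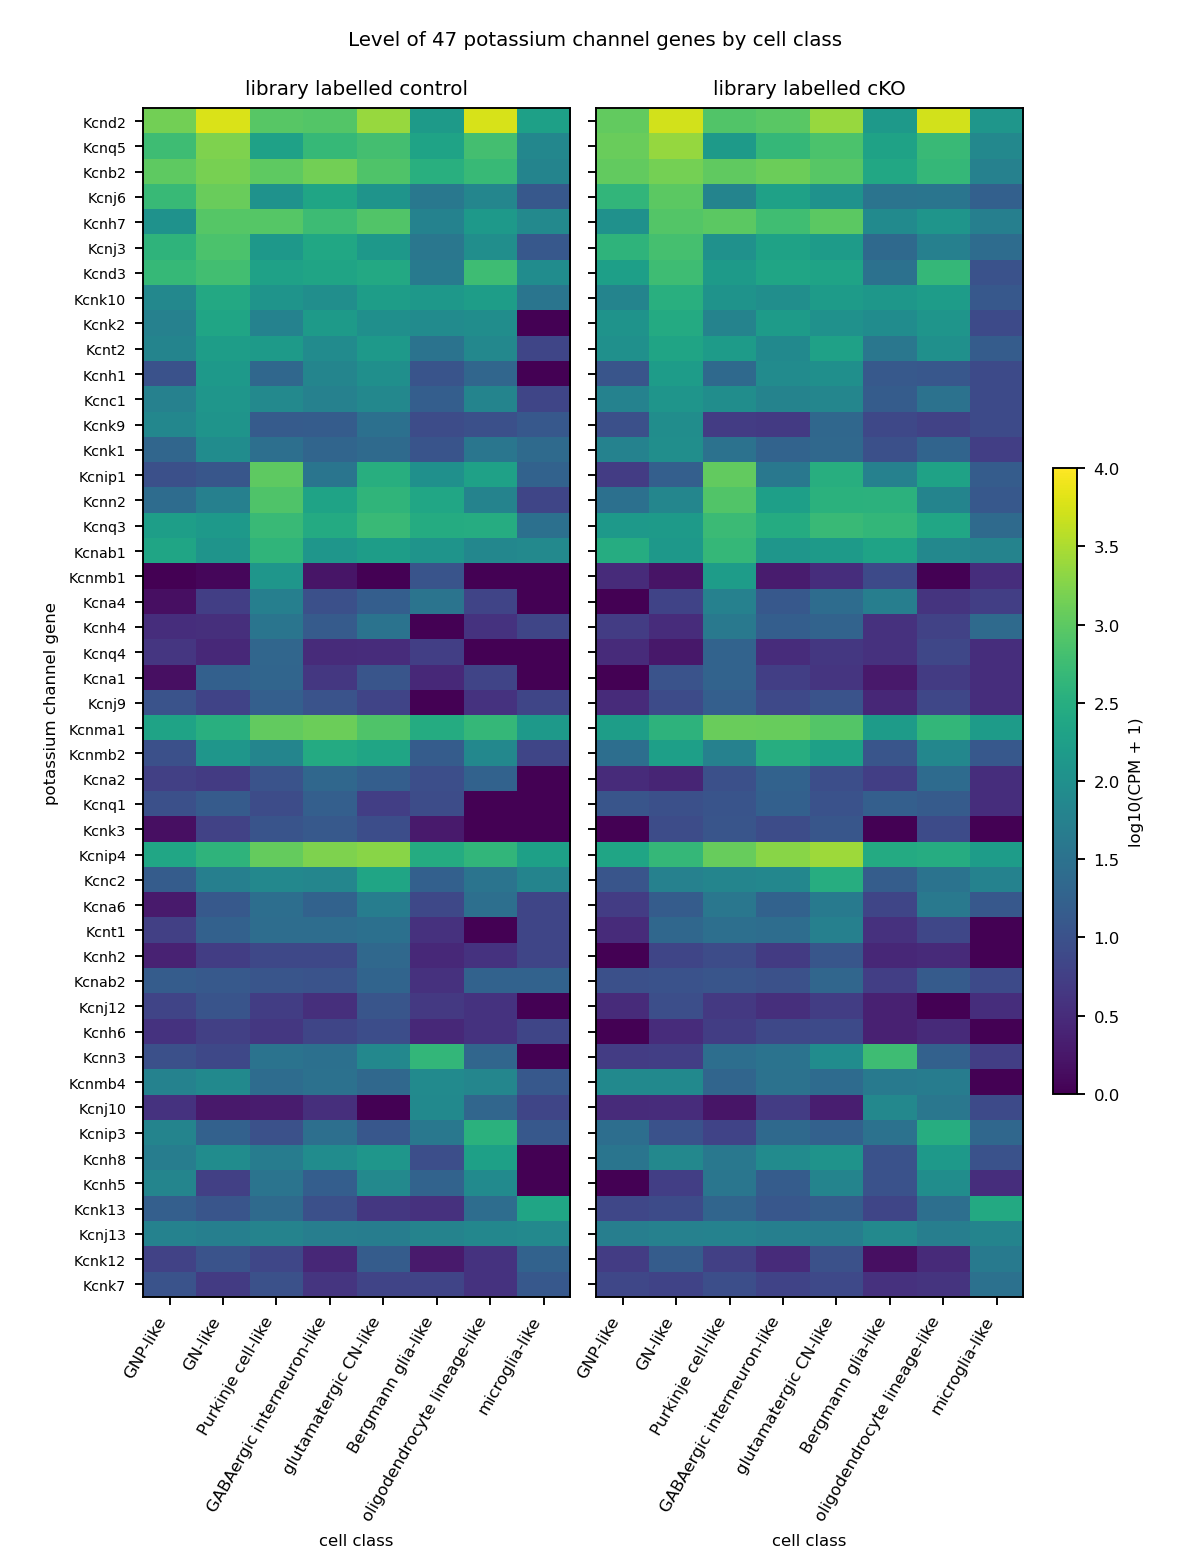
Level of 47 potassium channel genes with at least 100 UMIs in each library, as log10(CPM + 1), in 8 named classes (columns), with control on the left and the library labelled cKO on the right. Rows are ordered by the class that is highest in control, starting with the GN-like class. Kcnd2 is high in the GN-like and oligodendrocyte lineage-like columns of both panels, Kcnmb1 is highest in the Purkinje cell-like column, and Kcnh5 is at 0 in the GNP-like column of the right panel.

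Among the genes with high levels in GN-like nuclei were Kcnd2, Kcnj6 and Kcnj3. Kcnd2 reached 5897 CPM in control GN-like nuclei and 5343 CPM in those labelled cKO, 5.10-fold and 5.25-fold the median of the other classes. Kcnj6, a Kir pore opened by G proteins, stood at 1212 and 991 CPM, 10.8-fold and 11.5-fold that median. Its usual partner Kcnj3 stood at 741 and 665 CPM, while Kcnj9, another Kir gene opened by G proteins, stood at 5.45 and 7.31 CPM and was highest in Purkinje cell-like nuclei. Kcnk9, a K2P leak channel, stood at 118 and 91.6 CPM, and Kcnh1, an EAG-type pore, at 137 and 162 CPM. The pattern of these granule genes was alike in both libraries.

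Kcnip4 was higher outside the named classes than in GN-like nuclei. In an unnamed cluster of 402 and 474 nuclei led by Galntl6, Tmem132b and Syt6 which also held markers of granule neurons, Kcnip4 reached 18760.0 CPM in the control nuclei and 13421 CPM in those labelled cKO. Channel genes made up 3.08% and 2.71% of UMIs in that cluster, the highest share of any cluster or class for which it was computed, against 1.55% in GN-like nuclei of each library.

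Purkinje cell-like nuclei held the accessory subunits Kcnmb1 and Kcnip1. Kcnmb1 stood at 124 and 159 CPM, with a median over the other classes of 0.0879 and 1.68 CPM. Kcnip1 stood at 1022 and 1093 CPM, 20.2-fold and 23.1-fold that median, and the BK pore Kcnma1, which Kcnmb1 binds, at 1101 and 1231 CPM. Kcna4, a Kv1 pore of A-type current, stood at 53.0 and 55.3 CPM. Kcnn2, a small-conductance calcium-activated channel, stood at 797 and 806 CPM, and Kcng2, a silent Kv subunit, at 11.2 and 13.1 CPM. The levels of these 6 genes in Purkinje cell-like nuclei thus differed by less than 1.5-fold between libraries.

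In GABAergic interneuron-like nuclei, Kcnma1 stood at 1275 and 1185 CPM and Kcnip4 at 1694 and 1940.2 CPM, while Kcnt1, a sodium-activated pore, stood at 26.2 and 26.1 CPM and the K2P gene Kcnk3 at 12.2 and 7.55 CPM. Glutamatergic CN-like nuclei (cerebellar nuclei neurons) held the Kv3 gene Kcnc2 at 225 and 315 CPM, which serves fast firing, the Kv1 gene Kcna6 at 47.8 and 43.5 CPM, and Kcnip1 at 323 and 327 CPM.

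Glia had a short list of their own. Bergmann glia-like nuclei held Kcnj10, the main glial Kir channel, at 77.2 and 73.1 CPM, 31.3-fold and 33.6-fold the median of the other classes. They held Kcnn3, a small-conductance calcium-activated channel, at 442 and 574 CPM, 17.97-fold and 26.4-fold. Oligodendrocyte lineage-like nuclei held Kcnip3 at 354 and 315 CPM, Kcnd2 at 5644 and 5409 CPM, close to the level in granule neurons, and Kcnh8, an ELK-type pore, at 187 and 141 CPM. In microglia-like nuclei the K2P gene Kcnk13 stood at 224 and 265 CPM, 23.7-fold and 28.7-fold the median of the other classes. The K2P genes Kcnk12 and Kcnk7 also had their highest level there in both libraries, from 3 and 19 UMIs and from 2 and 13 UMIs. Kcnd2 (190 and 127 CPM) and Kcnip4 (190 and 164 CPM) were also counted in microglia which for Kcnip4 is below every other named class.

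The step from GNP-like to GN-like nuclei went with a higher level of most of the channel genes tested in both libraries. Of 27 channel genes with at least 100 UMIs over the 2 classes in each library, 19 were at least 1.5-fold higher in GN-like nuclei in both libraries, against a background of 14.7% of all genes tested, and 1 was lower in both, against 20.8%. GN-like nuclei held 5688599 and 6155857 UMIs of all genes, against 2096608 and 481302 in GNP-like nuclei. A gene high in GN-like nuclei thus passed this filter more easily, as Kcnt1 did with 10 and 1 GNP-like UMIs. The background went through the same filter. Channel genes made up 0.630% and 0.624% of UMIs in GNP-like nuclei. Kcnh1 stood at 9.06 CPM in GNP-like and 137 CPM in GN-like nuclei of control, 15.2-fold higher (9.64–25.3), and was 15.6-fold higher (6.68–48.3) in the library labelled cKO. Kcnmb2, a BK beta subunit that inactivates the channel, was 14.7-fold (9.24–24.9) and 6.70-fold (3.90–12.6) higher. Kcnh7 was 8.23-fold (7.20–9.45) and 8.08-fold (6.12–10.9) higher, and Kcnd2 4.19-fold (4.03–4.35) and 4.89-fold (4.49–5.34). Kcnc2 was 3.83-fold and 5.44-fold higher, and the K2P gene Kcnk10 3.52-fold and 5.27-fold.

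Kcnab1, a Kv beta subunit, was the gene that was lower in GN-like nuclei, a call that it lost when nuclei were gated on marker UMIs in place of clusters. It stood at 222 CPM in GNP-like and 115 CPM in GN-like nuclei of control, and at 301 and 135 CPM in those labelled cKO. Among the channel genes tested, the counting intervals of the 2 libraries' folds did not overlap for Kcnk9, Kcnd3, Kcnk1, Kcnq5, Kcnma1 and Kcnd2. The share of all genes without overlap was not computed, so this is not shown to be particular to channel genes. Kcnk9 was 1.68-fold (1.41–2.03) higher in control and 11.0-fold (4.28–40.6) in the library labelled cKO, and Kcnd3, the second Kv4 pore, 1.28-fold (1.19–1.37) and 3.09-fold (2.50–3.87). Kcnk1, a K2P gene, went the other way with 4.41-fold (3.21–6.19) and 1.61-fold (1.10–2.45), from 42 and 28 UMIs in GNP-like nuclei. The GN-like level of Kcnd3 was 613 and 566 CPM, so the gap lay in the GNP-like nuclei.

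**Figure D2:**
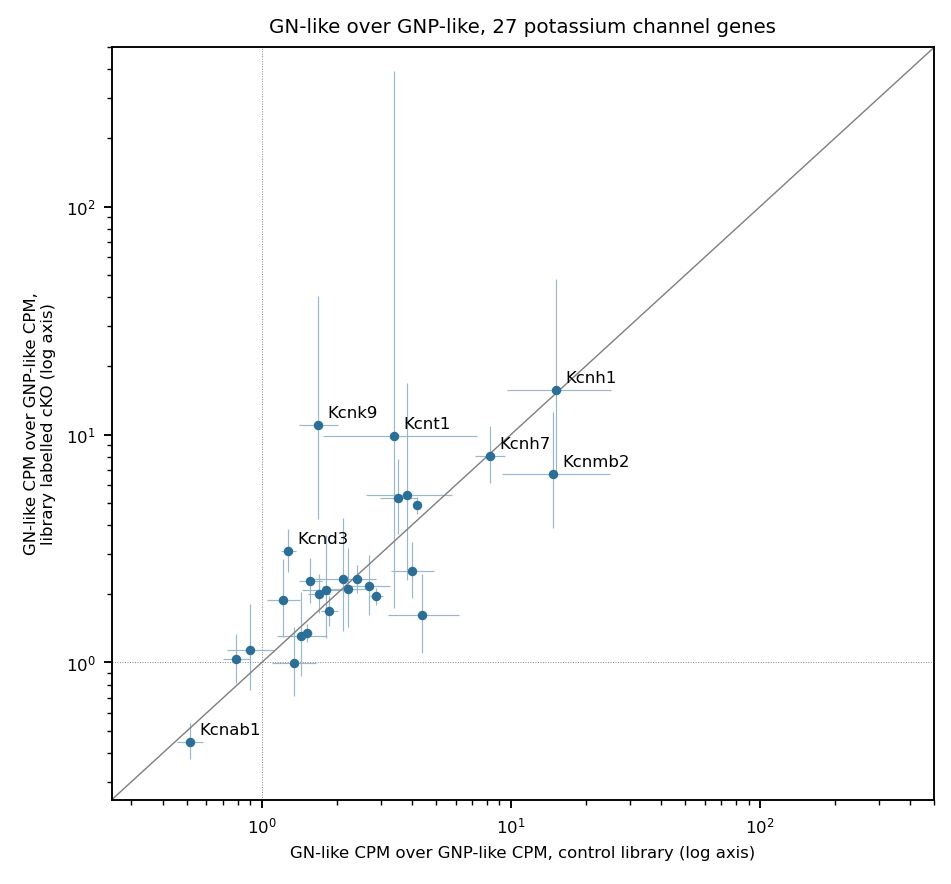
CPM in GN-like nuclei over CPM in GNP-like nuclei for 27 potassium channel genes, in control (x axis) and in the library labelled cKO (y axis), both log axes, with bars for 95% counting intervals and a diagonal for equal folds. Kcnh1, Kcnh7 and Kcnmb2 lie far to the upper right, Kcnab1 lies below 1 on both axes, and Kcnk9 and Kcnd3 stand above the diagonal.

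Within GNP-like nuclei, 3 of 23 channel genes were higher in the library labelled cKO, against a background of 7.49% of all genes tested, and 5 were lower, against 10.2%. The median log2 ratio of the 23 genes was -0.21, beside -0.03 over all 5450 genes tested there. Among the genes that were lower were Kcnh5, Kcnk9, Kcnd3 and Kcnip3, and those that were higher were Kcnq5, Kcnk2 and Kcnt2. The GNP-like class held a cluster of dividing nuclei, led by Gli2, Top2a and Mki67 (265 control and 73 labelled cKO), and a second led by Gli2 and Ntn1 (260 and 55).

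These 2 clusters were not alike in purity. In the second, the 9 fibroblast and mural markers summed to 133 CPM in control and 1606 CPM in the nuclei labelled cKO, with 9 of 9 higher, and the 7 Bergmann glia markers to 554 and 1470.1 CPM. In the dividing cluster the same lists summed to 9.16 and 6.57 CPM and to 455 and 595 CPM. The ratios of the genes named below are therefore also given for the dividing cluster alone.

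Kcnh5, a pore of the EAG family that passes a slow outward current, showed the widest gap. It had 137 UMIs in 525 control nuclei (65.3 CPM) and 0 UMIs in 128 nuclei labelled cKO. Set against a floor of 3 counts, or 6.23 CPM, it was at least 10.5-fold lower. It had 78 and 0 UMIs in the dividing cluster and 59 and 0 UMIs in the second. A UMI was seen in 16.95% of control nuclei and in 0 of 128 nuclei labelled cKO, which allows a share of up to 2.34% of nuclei with a UMI at this depth, not of nuclei that express the gene. In microglia-like nuclei, where the gene had 0 UMIs in control, the share was 0% and 0.662%, at median depths of 2917.5 and 2546 UMIs against 3721 and 3487.5 in GNP-like nuclei.

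Kcnh5 had no such gap in other classes. It stood at 82.2 and 91.1 CPM in oligodendrocyte lineage-like nuclei, at 75.1 and 62.2 CPM in glutamatergic CN-like nuclei and at 33.3 and 36.2 CPM in Purkinje cell-like nuclei. In GN-like nuclei it stood at 4.75 and 4.55 CPM, with 27 and 28 UMIs. Over all nuclei its ratio was 1.00 (0.894–1.12), so the gap in GNP-like nuclei cannot be read from the whole library. It held in nuclei with an Xist UMI and none from Y-linked genes (74 and 0 UMIs) and in nuclei with the reverse (47 and 0 UMIs). The first set held 271 control and 81 GNP-like nuclei labelled cKO, and the second 189 and 27, all from the same pools. Over all nuclei the sets held 1886 and 3816, and 1415 and 1462, so the mix of sexes differed between libraries. When nuclei were gated on marker UMIs in place of clusters, the ratio was 0.148, from 128 and 8 UMIs.

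Kcnk9, the K2P leak channel of granule neurons, had 147 UMIs in control GNP-like nuclei (70.1 CPM) and 4 in those labelled cKO (8.31 CPM), 8.44-fold lower (3.23–31.4). In the dividing cluster it had 76 and 1 UMIs, a ratio of 0.0519 (0.00130–0.298). It was lower in nuclei with Xist and in nuclei with Y-linked UMIs, with ratios of 0.0549 and 0.271, from 1 and 2 UMIs in the library labelled cKO. Under the marker gate the ratio was 0.426. In microglia-like nuclei Kcnk9 stood at 11.5 and 6.92 CPM, so its 8.31 CPM in GNP-like nuclei labelled cKO lay between the levels of a class not known for this channel. Those microglia-like levels rest on few Kcnk9 UMIs, as the class held 173763 and 433639 UMIs of all genes, so the comparison is rough.

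Kcnd3 stood at 479 CPM in control GNP-like nuclei and 183 CPM in those labelled cKO, 2.62-fold lower (2.11–3.30), and at 397 and 194 CPM in the dividing cluster. Its ratio was 0.484 in nuclei with Xist and 0.209 in nuclei with Y-linked UMIs. Kcnd2, its close relative, stood at 1408 and 1093 CPM, a ratio of 0.776 (0.706–0.852) that falls short of 1.5-fold, with 0.868 (0.780–0.964) in the dividing cluster. Kcnip3, a KChIP, stood at 63.0 and 27.0 CPM, 2.33-fold lower (1.32–4.49), and the dividing cluster gave 0.629 (0.300–1.20), an interval that includes 1.

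Kcnq5 was the abundant channel gene that was higher. It stood at 576 CPM in control GNP-like nuclei and 1201 CPM in those labelled cKO, a ratio of 2.08 (1.88–2.30), and at 721 and 1485 CPM in the dividing cluster. The ratio was 2.29 in nuclei with Xist, 1.69 in nuclei with Y-linked UMIs and 1.53 under the marker gate. In GN-like nuclei Kcnq5 stood at 1664 and 2343 CPM, a ratio of 1.41 (1.37–1.45). Kcnk2, a K2P channel sensitive to stretch, with 116 and 54 UMIs, had a ratio of 2.03 (1.44–2.82) over the class but 1.499 (0.835–2.59) in the dividing cluster. Without nuclei that held at least 3 fibroblast and mural UMIs, the Kcnk2 ratio was 1.79 (1.18–2.67), still past 1.5-fold. Kcnt2, a sodium-activated pore, had a ratio of 1.60 (1.12–2.24) over the class, 1.19 (0.673–2.01) in the dividing cluster and 1.14 (0.714–1.76) without nuclei that held at least 3 fibroblast and mural UMIs. The call for Kcnt2 thus rested on the cluster with fibroblast markers.

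**Figure D3:**
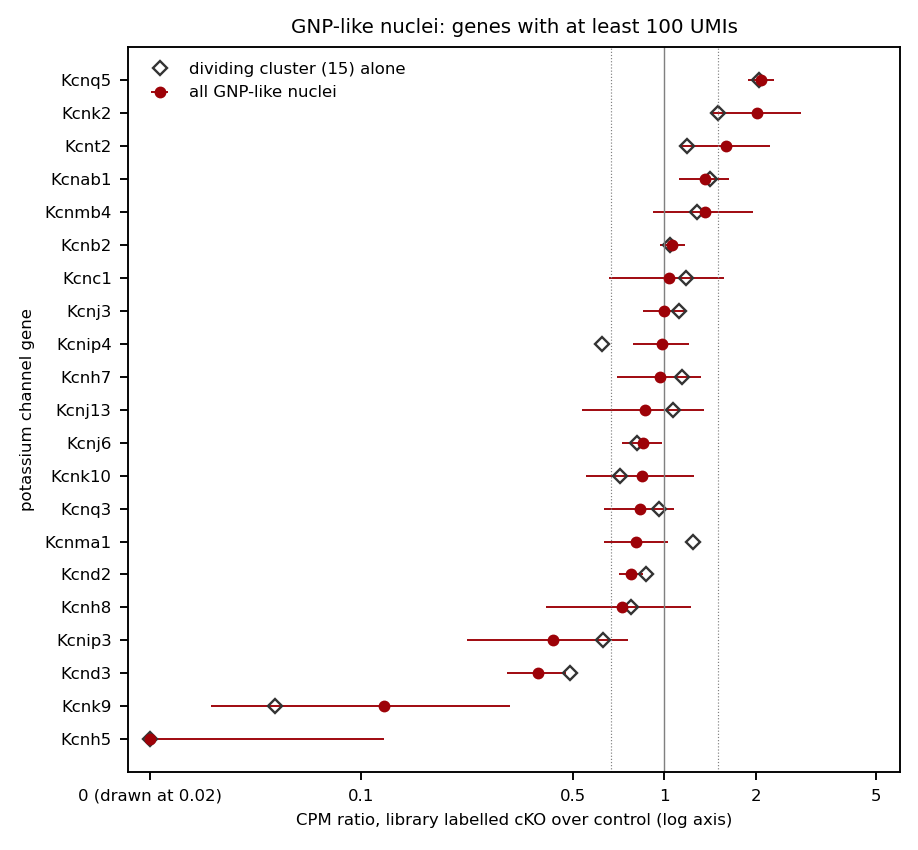
CPM ratio (library labelled cKO over control, log axis) in GNP-like nuclei for 21 potassium channel genes with at least 100 UMIs, with 95% counting intervals, and as open diamonds the ratio in the dividing cluster alone. Dotted lines mark 1.5-fold in each direction, and a ratio of 0 is drawn at 0.02. Kcnh5 and Kcnk9 lie far to the left and Kcnq5 to the right in both sets, while Kcnt2 moves to near 1 in the dividing cluster.

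The sequences just before the RefSeq starts of 3 of these genes are given to show promoters of genes past 1.5-fold in GNP-like nuclei, 2 that were lower and 1 that was higher. Each is 250 bases of GRCm38.p6, read 5′ to 3′ on the strand of the gene, with capitals for the E-box CANNTG, the core bound by basic helix-loop-helix factors such as Atoh1. Its reverse complement is the same pattern, so 1 strand covers both.
Kcnh5, chr12:75177333-75177582, minus strand: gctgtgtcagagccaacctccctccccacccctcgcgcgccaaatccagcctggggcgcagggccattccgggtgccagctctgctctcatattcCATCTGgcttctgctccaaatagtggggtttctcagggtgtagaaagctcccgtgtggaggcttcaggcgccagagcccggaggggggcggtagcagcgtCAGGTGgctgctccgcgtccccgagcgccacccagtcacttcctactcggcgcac
Kcnd3, chr3:105451640-105451889, plus strand: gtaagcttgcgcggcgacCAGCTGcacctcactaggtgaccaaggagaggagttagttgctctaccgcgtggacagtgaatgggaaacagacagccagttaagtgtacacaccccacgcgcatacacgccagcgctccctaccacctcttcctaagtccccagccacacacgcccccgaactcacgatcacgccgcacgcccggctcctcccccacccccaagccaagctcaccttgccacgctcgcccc
Kcnq5, chr1:21961943-21962192, minus strand: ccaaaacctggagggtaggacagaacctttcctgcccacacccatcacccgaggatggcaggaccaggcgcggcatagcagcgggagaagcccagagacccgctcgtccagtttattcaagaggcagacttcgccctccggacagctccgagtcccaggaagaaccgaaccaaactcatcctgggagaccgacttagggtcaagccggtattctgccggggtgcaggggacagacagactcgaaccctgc
The Kcnh5 window holds 2 E-boxes, the Kcnd3 window 1 and this Kcnq5 window 0, as does the window of a second Kcnq5 start. E-boxes did not divide the lower from the higher genes. Of the other genes that were higher, the Kcnk2 windows hold 2, 1, 1 and 0 E-boxes and the Kcnt2 window 1. The windows of Kcnip3, which was lower, hold 3, 0 and 0. An E-box was present in 61 of 92 windows of the 67 channel genes that had one (66.3%) and in 66.2% of all 32850 windows, so its presence in a single window is common.

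GN-like nuclei showed few gaps between libraries. Of 36 channel genes, 0 were higher in the library labelled cKO, against 2.44% of all genes, and 3 were lower, against 2.22%. Kcnip3 stood at 16.5 and 9.26 CPM, 1.78-fold lower (1.27–2.53). Kcna1, a Kv1 delayed rectifier, stood at 15.6 and 9.58 CPM, 1.63-fold lower (1.16–2.31), and Kcnq1, a Kv7 pore, at 13.2 and 8.45 CPM, 1.56-fold lower (1.08–2.27). All 3 were low in level, with fewer than 100 UMIs in each library. The granule genes Kcnj6 and Kcnk9 had ratios of 0.818 (0.790–0.847) and 0.776 (0.692–0.869). The GNP marker list summed to 242 and 154 CPM in GN-like nuclei, and its part in the ratios was not tested.

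The 3 GN-like clusters, set apart after their values were seen, differed for Kcnq5. It stood at 202 and 1022 CPM in the cluster of 240 and 222 nuclei with the most GNP markers, led by Cacna2d1 and Reln, a ratio of 5.05 (4.26–6.01) from 169 and 692 UMIs. The 2 other clusters gave 1.18 (1.14–1.21) and 1.63 (1.56–1.71). Kcnd2 in the same cluster stood at 4609.6 and 2688 CPM, a ratio of 0.583 (0.551–0.617), against 0.991 and 0.810 in the others, and Kcnip3 had 58 and 12 UMIs, a ratio of 0.255 (0.125–0.480). Kcna1 and Kcnq1 had 6 or fewer UMIs in each library there.

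In Purkinje cell-like nuclei 0 of 39 channel genes were higher (background 1.02%) and 1 was lower (2.75%). This was Kcnj6, at 109 and 63.0 CPM, a ratio of 0.579 (0.498–0.674). It was 0.466 in nuclei with Xist and 1.03 in nuclei with Y-linked UMIs, from 78 and 119 UMIs, so the gap was not seen in the second set. It also fell short of 1.5-fold under the marker gate (0.869) and with nuclei thinned to 1000 UMIs (0.842). Of the granule markers, 1 of 10 on the GN list and 0 of 9 on the GNP list had a higher CPM in the Purkinje cell-like nuclei labelled cKO, while the lists summed to 4457 and 4616 CPM and to 303 and 237 CPM. Their part in the Kcnj6 ratio was not tested. In GABAergic interneuron-like nuclei 1 of 35 channel genes was higher (1.19%) and 0 were lower (1.36%). In glutamatergic CN-like nuclei, chosen after the values were seen, Kcnt1 stood at 28.4 and 54.8 CPM, a ratio of 1.93 (1.25–3.08), from 73 and 261 nuclei.

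Bergmann glia-like nuclei had the largest share of channel genes past 1.5-fold after the GNP-like class among the 5 classes compared. Of 22 genes, 4 were higher in the library labelled cKO, against 3.28% of all genes, and 3 were lower, against 2.24%. Kcnab1 stood at 117 and 206 CPM, a ratio of 1.76 (1.44–2.16). Kcnn2 had a ratio of 1.58 (1.37–1.83), the Kv7 gene Kcnq3 of 1.54 (1.35–1.75) and Kcna4 of 1.52 (1.04–2.29). Kcnmb4, a BK beta subunit, stood at 80.0 and 41.3 CPM, a ratio of 0.517 (0.381–0.702). The BK pore Kcnma1 stood at 283 and 158 CPM, a ratio of 0.557 (0.476–0.651), and Kcnip1 at 99.3 and 55.9 CPM, a ratio of 0.563 (0.431–0.736).

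The BK pore and its beta subunit were thus both lower in these glia, while the glial markers of the family were not. Kcnj10 had a ratio of 0.947 (0.723–1.25) and Kcnn3 of 1.30 (1.17–1.45). The 7 Bergmann glia markers summed to 10128 and 9860.0 CPM, the 10 GN markers to 1796 and 1491 CPM, and the 9 oligodendrocyte lineage markers to 1225 and 991 CPM. Other lists rose, with GABAergic interneuron markers at 69.9 and 94.5 CPM, parenchymal astrocyte markers at 869 and 990 CPM, and fibroblast and mural markers at 26.7 and 44.1 CPM. Kcnab1, Kcnn2, Kcnq3 and Kcna4, and also Kcnip1, which was lower, had their highest level in Purkinje cell-like nuclei in both libraries. The part of other cell types in these ratios was not tested. With all doublets kept, the ratio of Kcnab1 was 1.26 and that of Kcnma1 0.684, both short of 1.5-fold.

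Over all nuclei, 6 of 63 channel genes were higher in the library labelled cKO, against a background of 3.98%, and 4 were lower, against 4.78%. The median log2 ratio was 0.12 for the channel genes and -0.02 for all 15630 genes tested. Among those that were higher were Kcnk4 (a K2P channel, 1.80), Kcnmb1 (1.75), Kcna4 (1.66), Kcnn3 (1.55) and Kcnj10 (1.53). Those that were lower were Kcnj11 (the Kir pore of ATP-sensitive channels, 0.548), Kcnk9 (0.564), the Kir gene Kcnj12 (0.617) and Kcnj6 (0.626). The next genes outside the threshold were Kcna6 (1.48) and Kcnip1 (1.47) on one side and Kcnj3 (0.705) and Kcnd3 (0.757) on the other. In sums over all nuclei, fewer nuclei of a class and less RNA per nucleus cannot be told apart.

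To show how much the mix of clusters differed, the ratio was also computed with control levels per cluster and the cluster make-up of the library labelled cKO. This gave 1.31 for Kcnj10, 1.36 for Kcnn3, 1.36 for Kcnmb1 and 1.53 for Kcnk4, and 0.758 for Kcnk9, 0.759 for Kcnj6 and 0.779 for Kcnj3. For Kcnj11 it gave 1.00, beside a measured ratio of 0.548 (0.391–0.766). Kcnj11 was low throughout, with 83 and 67 UMIs in all and 40 and 11 UMIs in GN-like nuclei. For the Purkinje and glial genes the measured ratio within their own class was closer to 1, at 1.28 (1.14–1.45) for Kcnmb1 in Purkinje cell-like nuclei and 0.947 for Kcnj10 in Bergmann glia-like nuclei. In the make-up calculation, the control levels of 1 low-depth cluster came from 25 nuclei, beside 647 labelled cKO.

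**Figure D4:**
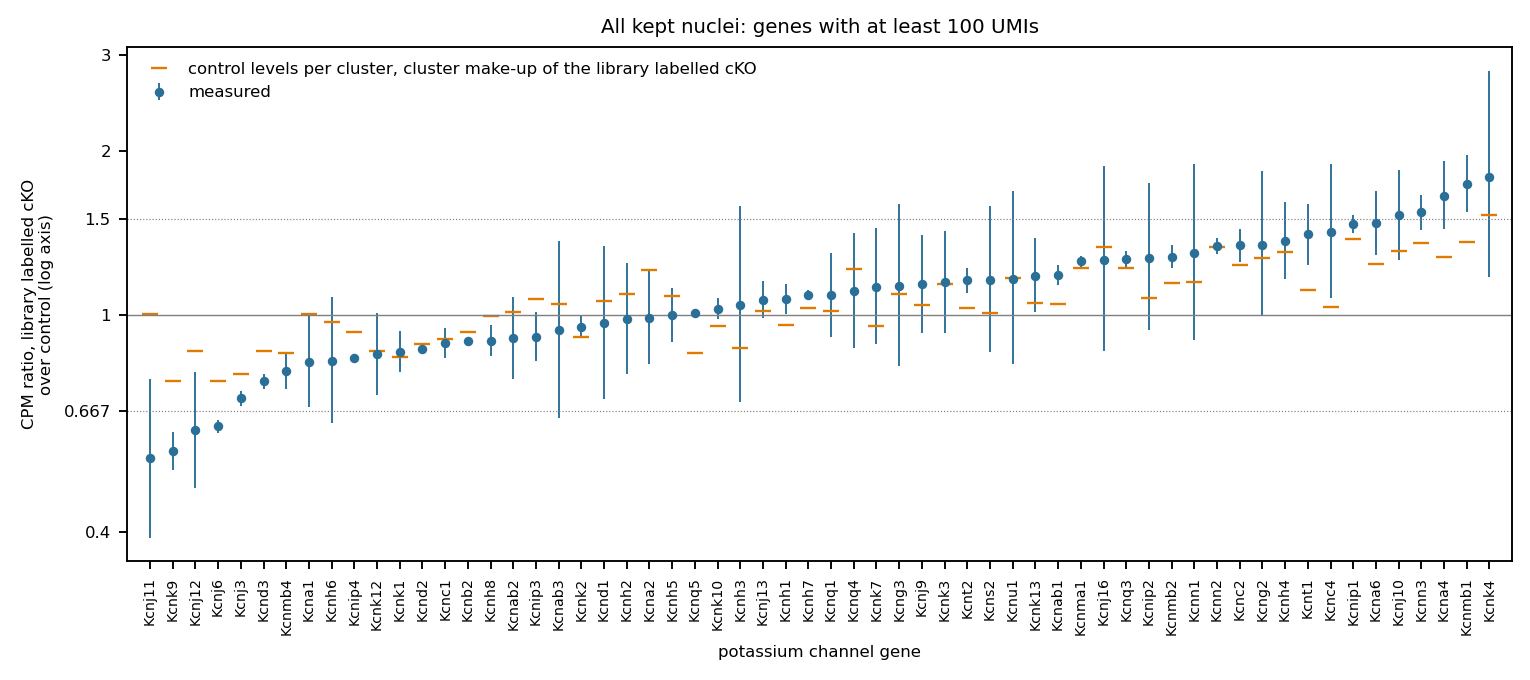
CPM ratio over all nuclei (library labelled cKO over control, log axis) for 60 potassium channel genes with at least 100 UMIs, with 95% counting intervals, and as orange dashes the ratio obtained from control levels per cluster and the cluster make-up of the library labelled cKO. For the genes shown past 1.5-fold the dashes lie closer to 1 than the points, and for Kcnj11 the dash lies at 1.00.

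The minor families added little. The 4 MinK-related genes held 46 UMIs in all, with Kcne2 the most abundant at 30 UMIs. The 10 silent Kv subunits held 882 UMIs, led by Kcng2, and the BK-like pore Kcnu1 136 UMIs, a ratio of 1.17 (0.815–1.69). The Kv3 family, led by Kcnc1, stood at a ratio of 1.06, the small and intermediate conductance family, led by Kcnn2, at 1.37, and the Kir family, led by Kcnj6, at 0.695.

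Genes that work with potassium channels were followed as a list of 37, made of Kv4 and Kv2 partners, axonal Kv1 clustering genes, further subunits, HCN channels, sodium pumps and chloride cotransporters. Over all nuclei 33 were tested and 0 passed 1.5-fold in either direction, beside 3.98% of all genes higher and 4.78% lower. In GNP-like nuclei 4 of 17 were higher and 2 lower, beside 7.49% and 10.2% of all genes. The Kv1 clustering genes Cntnap2 and Cntn2 stood at 421 and 952 CPM, a ratio of 2.26 (2.02–2.54), and at 46.3 and 148 CPM, a ratio of 3.19 (2.31–4.38), and both were as far apart in the dividing cluster, with 2.32 and 3.08. Cntn2 was also on the GN marker list. Adam23 had a ratio of 1.55 (1.01–2.32) over the class and 1.59 (0.936–2.63) in the dividing cluster, an interval that includes 1. The scaffold gene Dlg2 had a ratio of 0.661 (0.516–0.838) over the class and 0.708 (0.530–0.932) in the dividing cluster, short of 1.5-fold. In GN-like nuclei 1 of 27 was higher, Lgi1, at 24.6 and 40.1 CPM, and 0 were lower, near the 2.44% and 2.22% of all genes. In Purkinje cell-like nuclei 0 of 26 passed, beside 1.02% and 2.75% of all genes.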

How the data were processed

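The authors deposited, for each library, a 10x matrix of UMI counts per gene and barcode. Per the labels, the reads were processed with bcl2fastq and Cell Ranger 7.0.1 against mm10. Gene coordinates and sequences come from GENCODE vM21 and RefSeq. The potassium channel genes and all lists were chosen with earlier results of these data known.

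Barcodes over 25% mitochondrial UMIs were dropped (1 and 5), and so were the highest Scrublet scores, at 0.8% per 1000 barcodes (189 and 386). The automatic threshold was not used, as it marked 1 control barcode but 350 in the library labelled cKO. Seurat 5.3.0 integrated the libraries without the 19 channel genes among the variable features and clustered at resolution 0.8. A cluster was named from at least 3 markers, detected in at least 10% of nuclei and 2-fold over the lower quartile of the other clusters. Scripts used numpy 2.4.6 and scipy 1.17.1 and were tested on simulated data. UMIs were summed per class, with exact Poisson intervals for levels and exact conditional binomial intervals for ratios. Genes were named by size of ratio (up to 15 per direction over all nuclei, 10 in granule and 5 in other classes), by class, by family and by absence. Results for some genes and 1 class are not reported here.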

Additional observations from a re-analysis of the deposited data

How the results depend on the processing

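No paired analysis was possible because the comparison holds 1 library per genotype. Counts are of channel genes. The share of all genes was not computed under these settings, so the counts show only how the channel gene calls moved. With nuclei thinned to 1000 UMIs, 2 were lower over all nuclei, 1 higher and 1 lower in GNP-like, 1 higher and 0 lower in GN-like and 1 higher in Purkinje cell-like nuclei, 11 were higher in GN-like than GNP-like nuclei and 24 of 29 tested had the same highest class in both libraries. In nuclei with Xist, 1 was higher and 2 lower in GNP-like, 0 lower in GN-like, and 1 higher and 2 lower in Purkinje cell-like nuclei. In nuclei with Y-linked UMIs, 2 were higher and 2 lower over all nuclei, 1 higher and 0 lower in GN-like, 1 higher in Purkinje cell-like nuclei, and 21 of 35 had the same highest class in both libraries. The marker gate gave 7 higher in GNP-like, 1 higher and 0 lower in GN-like and 1 higher in Purkinje cell-like nuclei. The dividing cluster alone, added after seeing the data, gave 1 higher and 3 lower. With all doublets kept, 2 were lower in Purkinje cell-like nuclei. A minimum of 50 UMIs gave 11 higher over all nuclei, 3 lower in Purkinje cell-like and 2 lower in GN-like than GNP-like nuclei, and one of 200 UMIs gave 1 higher and 2 lower in GNP-like and 0 lower in GN-like nuclei. At 2-fold, 0 were higher or lower over all nuclei, 0 lower in GN-like and in Purkinje cell-like nuclei, and 12 higher and 0 lower in GN-like than GNP-like nuclei.

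Of such counts under an alternative, 102 stayed within 1.5-fold and 38 did not. Of single ratios, 213 stayed within their counting interval, 36 left it in the same direction and 1 changed direction, Kcnj6 in Purkinje cell-like nuclei (1.03, in nuclei with Y-linked UMIs). The causes were not tested. With 128 GNP-like nuclei labelled cKO, little can be said of genes under 100 UMIs there, and animals were pooled, so no spread between them could be had.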
